A study of Mus musculus with 14 samples.

Results

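The transcripts of 34 genes of microglia and other macrophages were followed in whole hippocampus of neonatal mice with and without gasdermin D (Gsdmd), kept in room air or in hyperoxia. The genes were taken by symbol from a list of microglial and macrophage markers. They are 34 of the 36118 genes in the table, and all 34 had enough counts to be among the 16637 genes tested.

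Hippocampal polyA RNA was sequenced from 14 C57/BL6 mice at postnatal day 15, with 1 library per mouse. The WT-RA group (n = 4) and the WT-O2 group (n = 4) were wild-type littermates from matings of heterozygotes. The KO-RA group (n = 3) and the KO-O2 group (n = 3) were homozygous for a short deletion within the fifth exon of Gsdmd, which is carried by every cell of the body rather than by microglia alone. The RA groups were kept in room air, and the O2 groups were kept in 85% O2 for the first postnatal weeks. Libraries held between 27272270 and 28257496 estimated counts. Gsdmd itself had 41 to 63 estimated counts in the WT libraries and 22 to 42 in the KO libraries. Transcripts of the gene were thus still counted in every KO library. The ranges overlap, but Gsdmd was lower in KO averaged over exposures (log2 fold change -0.522, Benjamini-Hochberg adjusted p = 0.016 by edgeR). By qRT-PCR, the study reported no measurable Gsdmd transcript in KO brains, without showing those data. The record of mouse GSD408 (WT-O2 replicate 4) gives hyperoxia in its title and room air in its treatment field, and it was analysed as WT-O2. The KO mice carry higher identification numbers than the WT mice, so genotype and the order in which mice were numbered cannot be told apart.

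Microglia are the resident macrophages of the brain parenchyma. They arise from yolk sac precursors under the transcription factors PU.1 (encoded by Spi1) and IRF8, and they depend on signalling through the receptor CSF1R, whose ligands CSF1 and IL-34 are made by other brain cells. In the developing hippocampus they survey neurons through CX3CR1 and P2RY12, tag synapses with the complement protein C1q, engulf debris through TREM2 and its adaptor TYROBP (DAP12), and sense microbial and damage signals through Toll-like receptors.

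The 34 genes covered a wide range of levels. Cst3, which encodes the secreted protease inhibitor cystatin C and is also strongly transcribed in astrocytes, was by far the most abundant, with a mean of 701 CPM (counts scaled to library size by the TMM method), whereas the lowest mean was 1.08 CPM, for Tlr2. On a scale of CPM per kilobase of exon, Cst3 averaged 554. It was followed by the complement genes C1qb (30.4 CPM per kb) and C1qa (30.0), the purinergic receptor P2ry12 (25.8), C1qc (20.8) and Csf1r (17.2). The ranges over the 14 libraries of C1qb (26.9 to 34.9) and C1qa (26.2 to 33) overlapped, so their order was not resolved. Aif1, which encodes the calcium-binding protein IBA1 used to stain microglia, averaged 1.56 CPM per kb, and Cd68, which encodes a lysosomal membrane protein, averaged 10.3. The lowest values per kb were those of Tlr2 (0.357), Tlr4 (0.261) and Ptprc (0.199). The libraries thus held the transcripts that define microglia, while 8 of the 34 genes averaged below 5 CPM and the lowest estimated count of any member in a library was 12.

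The C1q chain genes lie next to each other on chromosome 4 and encode the 3 chains of 1 protein. Their levels moved together between mice, as did those of some other pairs described below. Whether they share regulation was not tested. PU.1 recognises sequences with a GAGGAAGT core, and the 250 bases before the start of C1qc hold 1 such match. RefSeq promoters (assembly GRCm38.p6) were found for 24 of the 34 genes. The match lies on the strand opposite to C1qc, with its first base 195 bases before the start, within the window chr4:136893091-136893120. The matching bases are in capitals in this window, read 5′ to 3′ along C1qc.
C1qc: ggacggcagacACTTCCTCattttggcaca
Of the 24 genes, 1 (4.17%) had this motif on either strand, against 2.79% of all 27025 genes with a promoter. The ETS-IRF composite motif, which PU.1 and IRF8 bind together, was in 0 of the 24 against 2.68% of all genes. These are matches of letters in a short window, and the deposited files hold no measurement of binding.

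The first question was whether hyperoxia altered these transcripts in WT hippocampus. In WT-O2 vs WT-RA, 21 of the 34 genes were higher and 13 were lower, with a median log2 fold change of 0.034, against -0.006 over all genes tested. None was called by the quasi-likelihood test of edgeR, where 0.643% of all genes tested were called. A call required a group mean at least 25% above that of the other group, an unadjusted p below 0.05 and, over all genes tested, a Benjamini-Hochberg adjusted p (q) below 0.1. DESeq2 also called 0, giving no adjusted p for Tlr2, where it called 2.21% of the genes with an adjusted p. By the Y-linked genes, 1 of 4 WT-RA mice and 3 of 4 WT-O2 mice were male (1 of 3 in each KO group), so sex ran with exposure in WT. With sex as a covariate the median was 0.011 and 1 of the 34 had an unadjusted p below 0.05, and with mouse GSD408 as room air the median was 0.076 and 5 did. The share of all genes at that p was not computed for these alternative fits. In the fit without them, an unadjusted p below 0.05 was reached by 3 of the 34 genes, against a background of 12.2%. All 34 of the 95% intervals lay within a log2 fold change of 1 in either direction, and 30 lay within a 1.5-fold change. In bulk tissue, fewer cells of a type and less RNA per cell cannot be told apart, so these values describe the sum of both.

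The proteins of Aif1 and Cd68 were stained in sections by the study to count microglia, so their transcripts were examined first. Aif1 (ENSMUSG00000024397) was measured at 1.96, 2.85, 2.58 and 1.90 CPM in WT-RA and at 2.64, 1.65, 2.37 and 2.42 CPM in WT-O2. In KO mice it was measured at 2.23, 2.69 and 2.13 CPM in room air and at 2.79, 2.97 and 2.21 CPM in hyperoxia. All 4 groups overlapped, with the highest WT value in room air and the lowest in hyperoxia. The log2 fold change of Aif1 in WT-O2 vs WT-RA was -0.035 (standard error 0.185, edgeR q = 0.963), with a 95% interval of 0.742-fold to 1.28-fold.

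Cd68 (ENSMUSG00000018774) was measured at 11.1, 12, 13.6 and 12.6 CPM in WT-RA and at 12.5, 13.8, 13.2 and 12.9 CPM in WT-O2. The values were 13, 14 and 11.8 CPM in KO-RA and 13.5, 12.1 and 14.6 CPM in KO-O2. The lowest value was in a WT-RA mouse and the highest in a KO-O2 mouse, and all 4 groups overlapped. The log2 fold change of Cd68 in WT-O2 vs WT-RA was 0.088 (standard error 0.087, edgeR q = 0.745), with a 95% interval of 0.934-fold to 1.21-fold. In KO-O2 vs WT-O2 the interval was 0.888-fold to 1.17-fold for Cd68 and 0.874-fold to 1.57-fold for Aif1.

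**Figure D1:**
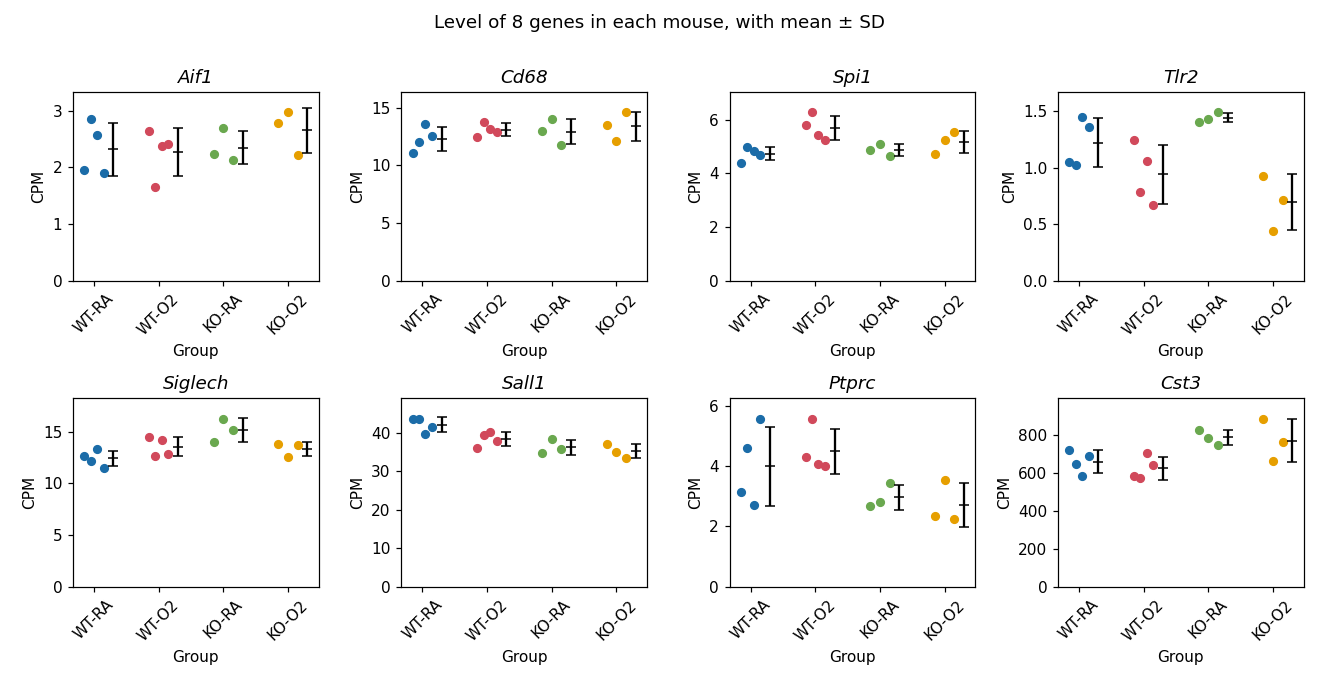
CPM (counts scaled to library size) of 8 genes in each of the 14 mice, with 1 panel per gene, 1 point per mouse and the group mean ± SD as a black bar beside the points (n = 4 in WT-RA and WT-O2, n = 3 in KO-RA and KO-O2). The 4 groups overlap for Aif1 and Cd68, every WT-O2 value of Spi1 lies above every WT-RA value, and every KO-O2 value of Tlr2 lies below every KO-RA value.

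Among the lineage transcription factors, Spi1 was the 1 member whose WT groups did not overlap (2.94% of the 34, against 5.99% of all genes tested). Spi1 (ENSMUSG00000002111) was measured at 4.40, 4.97, 4.84 and 4.70 CPM in WT-RA and at 5.79, 6.27, 5.42 and 5.26 CPM in WT-O2. Every WT-O2 mouse was above every WT-RA mouse. Spi1 had a log2 fold change of 0.27 with a standard error of 0.097, and its q of 0.28 by edgeR did not pass the threshold. In KO mice, Spi1 was measured at 4.87, 5.11 and 4.66 CPM in KO-RA and at 4.73, 5.25 and 5.55 CPM in KO-O2, which overlapped, and the log2 fold change was 0.084 (standard error 0.113). The difference between these responses was -0.18 on the log2 scale (standard error 0.149, edgeR interaction q = 1).

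Sall1 (ENSMUSG00000031665) encodes a zinc finger factor that marks microglia among macrophages and is also expressed in neural progenitors. It was measured at 43.7, 43.6, 39.7 and 41.5 CPM in WT-RA and at 35.9, 39.3, 40.2 and 37.9 CPM in WT-O2. The lowest WT-RA mouse lay below the highest WT-O2 mouse, and the log2 fold change was -0.14 (standard error 0.058, edgeR q = 0.354). Irf8, the other lineage factor, ranged from 3.48 to 5.52 CPM over the 14 libraries, with a log2 fold change of 0.016 in WT and 0.02 in KO under hyperoxia.

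The surface receptors by which microglia are usually recognised were close to their room air levels. Of the 9 genes in this group, 6 were higher and 3 lower in WT-O2, between -0.089 and 0.12 on the log2 scale, and 0 had a p below 0.05. P2ry12 (ENSMUSG00000036353), the ADP receptor that guides microglial processes, was measured at 55.4, 64.8, 61.2 and 65.6 CPM in WT-RA and at 72.4, 63.5, 65.8 and 54.1 CPM in WT-O2. Both the highest and the lowest of these 8 values were in WT-O2. The log2 fold change of P2ry12 was 0.05 (standard error 0.083, edgeR q = 0.867).

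Tmem119 (ENSMUSG00000054675), a transmembrane protein specific to microglia in the brain, was measured at 18.8, 17.1, 18.6 and 19.9 CPM in WT-RA and at 15.7, 18.2, 18.2 and 18.4 CPM in WT-O2. The groups overlapped, with WT-O2 replicate 1 the lowest of all 14 mice. Csf1r (ENSMUSG00000024621), the receptor on which microglial survival depends, was among the most even of the 34 genes, at 96.7, 94.8, 97.8 and 95.9 CPM in WT-RA and 97.1, 97.1, 102 and 97.7 CPM in WT-O2. Its log2 fold change was 0.031, and its 95% interval of 0.952-fold to 1.10-fold was the narrowest of the 34 genes in this comparison. Csf1r shares 873 of its 5774 exon bases with Hmgxb3 on the opposite strand, and whether counting used strand is not given in the sources used here.

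The 3 C1q genes were 0.062 to 0.091 higher in WT-O2 on the log2 scale, and 0 of them had a p below 0.05. C1qa (ENSMUSG00000036887) was measured at 29.3, 31.0, 27.3 and 29.5 CPM in WT-RA and at 30.0, 31.5, 33.6 and 29.7 CPM in WT-O2. C1qb (ENSMUSG00000036905) was measured at 30.5, 31.7, 29.3 and 34.8 CPM in WT-RA and at 29.9, 31.8, 38.0 and 32.1 CPM in WT-O2. For both genes the groups overlapped, and WT-O2 replicate 3 was the highest of the 8 WT mice. C1qc (ENSMUSG00000036896) was measured at 38.3, 38.1, 36.4 and 37.2 CPM in WT-RA and at 39.4, 39.5, 44.0 and 37.0 CPM in WT-O2, where 3 of the 4 hyperoxia mice were above every room air mouse. Its log2 fold change was 0.09 (standard error 0.062, edgeR q = 0.61).

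Among the genes of immunoreceptor signalling, Fcgr3 (ENSMUSG00000059498), an activating receptor for IgG, was measured at 9.16, 10.3, 8.80 and 10.6 CPM in WT-RA and at 11.7, 10.6, 12.9 and 10.6 CPM in WT-O2. All WT-O2 values were at or above the highest WT-RA value to the digits given. The log2 fold change was 0.24 with a standard error of 0.096 (edgeR q = 0.335). In KO mice it was -0.082, and the interaction had an unadjusted p of 0.0481 and a q of 1 by edgeR. Fcer1g, the signalling chain shared by Fc receptors, had a log2 fold change of 0.16 in WT (edgeR q = 0.688) and 0.28 in KO (edgeR q = 0.997). Trem2, the phagocytic receptor, ranged from 6.98 to 10.2 CPM and its adaptor Tyrobp from 7.49 to 11.6 CPM, and their log2 fold changes in WT were 0.087 and -0.1.

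The lysosomal group, which includes the protease Ctss, the lysozyme Lyz2 and the pore-forming Mpeg1, had 2 genes higher and 4 lower in WT-O2, between -0.083 and 0.088 on the log2 scale. The leukocyte genes Itgam, Cd53 and Ptprc had log2 fold changes of 0.001, 0.18 and 0.17 in WT-O2 vs WT-RA. Itgam, which encodes the complement receptor chain CD11b, shares 3450 of its 5024 exon bases with the annotated gene Gm49368, which averaged 1.9 counts, so its value may hold reads that could be assigned to either.

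**Figure D2:**
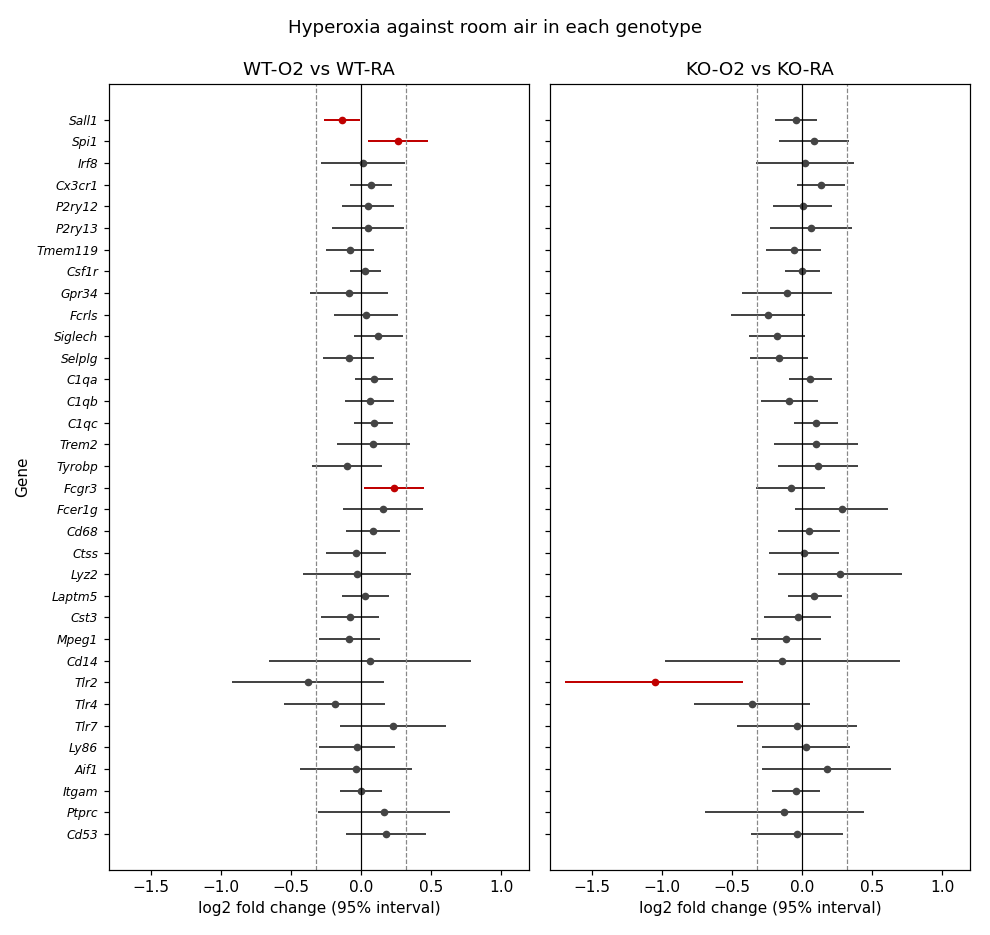
Log2 fold change of each of the 34 genes under hyperoxia, with its 95% interval, in WT mice (left) and KO mice (right). Genes with an unadjusted p below 0.05 are red, and the dashed lines mark the fold change needed for a call. Most points lie between the dashed lines, and Tlr2 in KO mice is the farthest from 0, at -1.05.

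The same exposure was then examined in KO mice. Between KO-O2 and KO-RA, 17 of the 34 genes were higher and 17 lower in KO-O2, with a median log2 fold change of -0.015, against -0.002 over all genes tested. edgeR and DESeq2 each called 0 of the 34, where they called 0.0120% and 0.0782% of all genes tested. An unadjusted p below 0.05 was reached by 1 of the 34 genes, against 4.86% of all genes. The groups did not overlap for 4 of the 34 genes (11.8%), which equals the 11.8% of all genes tested. Of these, Fcer1g and Lyz2 were higher and Siglech and Tlr2 were lower in KO-O2.

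Tlr2 (ENSMUSG00000027995), a receptor for bacterial lipopeptides, had the largest difference of the 34 genes. It was measured at 1.41, 1.43 and 1.49 CPM in KO-RA and at 0.931, 0.440 and 0.713 CPM in KO-O2. All 3 hyperoxia mice were below all 3 room air mice. The difference was -1.05 on the log2 scale (standard error 0.296), with an unadjusted p of 0.00286 and a q of 0.782 by edgeR, so Tlr2 was not called. In WT mice, whose libraries were of like depth, Tlr2 had 29, 29, 41 and 38 estimated counts in WT-RA and 34, 22, 30 and 19 in WT-O2. These groups overlapped, and their log2 fold change was -0.38 (standard error 0.25, edgeR q = 0.596). The interaction of genotype and exposure for Tlr2 was -0.675 (standard error 0.388, edgeR q = 1). These levels rest on few reads, since the lowest library held 12 counts of Tlr2.

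The other pattern recognition genes were also low. Tlr4, the receptor for lipopolysaccharide, ranged from 1.13 to 1.96 CPM, with a log2 fold change under hyperoxia of -0.19 in WT (edgeR q = 0.702) and -0.36 in KO (edgeR q = 0.997). Its co-receptor Cd14 ranged from 0.671 to 2.11 CPM and Tlr7, a sensor of single-stranded RNA, from 2.69 to 5.70 CPM. The 95% interval of Cd14 in KO-O2 vs KO-RA ran from 0.509-fold to 1.61-fold, so differences within that interval could not be told from none. Averaged over genotypes, the difference of O2 against RA was -0.715 for Tlr2 (standard error 0.194, edgeR q = 0.166) and -0.27 for Tlr4 (edgeR q = 0.418), and 0 of the 34 genes were called by edgeR against 0.337% of all genes tested. By DESeq2, 1 of the 34 was called in this averaged comparison, which was Tlr2 (log2 fold change -0.71, q = 0.0824), where DESeq2 called 0.856% of all genes. In the averaged edgeR comparison, 4 of the 34 genes had an unadjusted p below 0.05 (Spi1, Fcer1g, Tlr2 and Tlr4), against 11.8% of all genes.

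The interaction of genotype and exposure was called for 0 of the 34 genes by edgeR and by DESeq2, and each called 0% of all genes tested. An unadjusted p below 0.05 was reached by Siglech and Fcgr3, 2 of the 34, against 4.05% of all genes. Siglech (ENSMUSG00000051504), a sialic acid-binding lectin of microglia, was measured at 12.7, 12.2, 13.3 and 11.5 CPM in WT-RA and at 14.5, 12.7, 14.2 and 12.9 CPM in WT-O2. In KO-RA it was measured at 14.0, 16.3 and 15.2 CPM and in KO-O2 at 13.8, 12.6 and 13.7 CPM. Hyperoxia mice were higher on average in WT, with overlap, and lower in KO, without overlap. For Siglech the interaction came to -0.31 in log2 units, with a standard error of 0.12 and a q of 1 by edgeR.

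The comparison of genotypes asked whether loss of Gsdmd altered these transcripts. In KO-RA vs WT-RA, 28 of the 34 genes were higher and 6 lower, with a median log2 fold change of 0.072, against -0.007 over all genes tested. edgeR and DESeq2 each called 0 of the 34 genes, where they called 10.4% and 11.1% of all genes tested. An unadjusted p below 0.05 was reached by 3 of the 34 (Sall1, Siglech and Cst3), against 23.5% of all genes. The groups did not overlap for 6 of the 34 (17.6%), against 19.6% of all genes tested. Csf1r, Siglech, C1qc, Cst3 and Cd53 were higher and Sall1 was lower in these 6.

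By edgeR, Siglech and Sall1 had a q below 0.1 in room air, as did 14.8% of all genes tested, but differed by less than 25%. For Siglech the log2 fold change was 0.29 (standard error 0.084, edgeR q = 0.0432), with each KO-RA mouse above each WT-RA mouse. Sall1 was measured at 34.6, 38.4 and 35.8 CPM in KO-RA, all below the lowest WT-RA value of 39.7 CPM, and its log2 fold change was -0.215 (standard error 0.063, edgeR q = 0.043). In KO-O2 it was measured at 37.2, 35.1 and 33.4 CPM, which overlapped WT-O2, with a log2 fold change of -0.12 (edgeR q = 0.324). Without WT-RA replicate 3 or without KO-RA replicate 1, the difference in Siglech passed 25% and the gene was called, with a log2 fold change of 0.33 (edgeR q = 0.0309) and 0.34 (edgeR q = 0.0523).

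All 9 surface receptors were above WT-RA in KO-RA, between 0.034 and 0.29 on the log2 scale, as were the 3 C1q genes, between 0.11 and 0.16. The C1q genes in KO-RA were measured at 30.5, 33.5 and 31.5 CPM for C1qa, at 33, 36.6 and 36.0 CPM for C1qb and at 39.9, 41.6 and 40.0 CPM for C1qc. The KO-RA values of C1qc lay above all 4 WT-RA values, whereas those of C1qa and C1qb overlapped WT-RA. None of the C1q genes had an unadjusted p below 0.05 (edgeR q = 0.294, 0.291 and 0.356). Csf1r was measured at 100, 105 and 99.4 CPM in KO-RA, above all WT-RA mice, with a log2 fold change of only 0.076 (edgeR q = 0.422).

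Under hyperoxia, 23 of the 34 genes were higher and 11 lower in KO mice, with a median log2 fold change of 0.044, against -0.009 over all genes tested. edgeR called 0 of the 34, against 6.86% of all genes tested. An unadjusted p below 0.05 was reached by Cst3, Ptprc and Cx3cr1, 3 of the 34, against 18.7% of all genes. The groups did not overlap for Lyz2, which was higher, and Ptprc, which was lower, so for 5.88% of the 34 against 19.0% of all genes. DESeq2 called 1 of the 34, which was Ptprc, against 7.92% of all genes.

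Ptprc (ENSMUSG00000026395) encodes CD45, a phosphatase of all nucleated blood-derived cells that is low on microglia. It was measured at 3.13, 4.61, 2.72 and 5.56 CPM in WT-RA and at 4.32, 5.59, 4.07 and 4 CPM in WT-O2. In KO mice it was measured at 2.67, 2.80 and 3.45 CPM in room air and at 2.36, 3.56 and 2.25 CPM in hyperoxia. Each KO-O2 mouse was below each WT-O2 mouse, whereas 2 of the WT-RA mice (3.13 and 2.72 CPM) lay within the KO-RA range. The log2 fold change was -0.72 in KO-O2 vs WT-O2 (standard error 0.244, edgeR q = 0.104) and -0.43 in KO-RA vs WT-RA (standard error 0.242, edgeR q = 0.314).

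Averaged over exposures, Ptprc was the 1 member called, and its log2 fold change in KO was -0.575 (standard error 0.172, edgeR q = 0.0301), where 4.11% of all genes tested were called higher and 7.94% lower. It was called in all 14 fits that left out 1 mouse, with log2 fold changes from -0.694 to -0.47. With striatal and thalamic marker scores as covariates, its log2 fold change was -0.14 (edgeR q = 0.986), and edgeR called 1 of all genes tested. The summed level of 12 lymphocyte markers was 8.25 to 32.8 CPM in WT and 2.19 to 3.84 CPM in KO mice and was thus also lower in KO, without a test of the sum. In WT libraries most of that sum came from Cd4 and Trbc2, while the T cell receptor chain Cd3e had 2 to 12 counts in WT and 3 to 8 in KO libraries, and the natural killer gene Nkg7 had 0 or 1 count. The part of these markers in the value of Ptprc was not tested.

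Cst3 (ENSMUSG00000027447) had the smallest p of the 34 genes between genotypes averaged over exposures. It was measured at 723, 645, 582 and 691 CPM in WT-RA and at 583, 573, 704 and 640 CPM in WT-O2. In KO mice it was measured at 829, 787 and 749 CPM in KO-RA and at 888, 663 and 764 CPM in KO-O2. KO-RA lay above all WT-RA mice, and KO-O2 replicate 2 lay within WT-O2. Averaged over exposures, the log2 fold change was 0.28 (standard error 0.072, edgeR q = 0.0137), a 1.21-fold difference that is under the threshold for a call. Without KO-O2 replicate 2 it was 0.33 (edgeR q = 0.00544) and Cst3 was called. The summed level of 10 astrocyte markers was 4010 to 4610 CPM in WT and 4680 to 5420 CPM in KO mice, and its part in the value of Cst3 was not tested.

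Cx3cr1 (ENSMUSG00000052336), the fractalkine receptor, was measured at 56.8, 57.2, 61.8 and 59.6 CPM in WT-RA and at 64.3, 60.2, 67.0 and 56.0 CPM in WT-O2. It was measured at 67.6, 65.8 and 57.3 CPM in KO-RA and at 72.2, 66.0 and 71.5 CPM in KO-O2. KO-O2 held the 2 highest values of the 14 mice, and within each exposure the genotypes overlapped. Averaged over exposures, its log2 fold change was 0.14 (standard error 0.051, edgeR q = 0.0667), which is a 1.10-fold difference and was not called. In the averaged comparison of genotypes, 27 of the 34 genes were higher and 7 lower in KO, 8 had an unadjusted p below 0.05 against 30.1% of all genes, 4 had a q below 0.1 (Sall1, Cx3cr1, Cst3 and Ptprc) against 24.0%, and all 34 of the 95% intervals lay within a log2 fold change of 1.

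**Figure D3:**
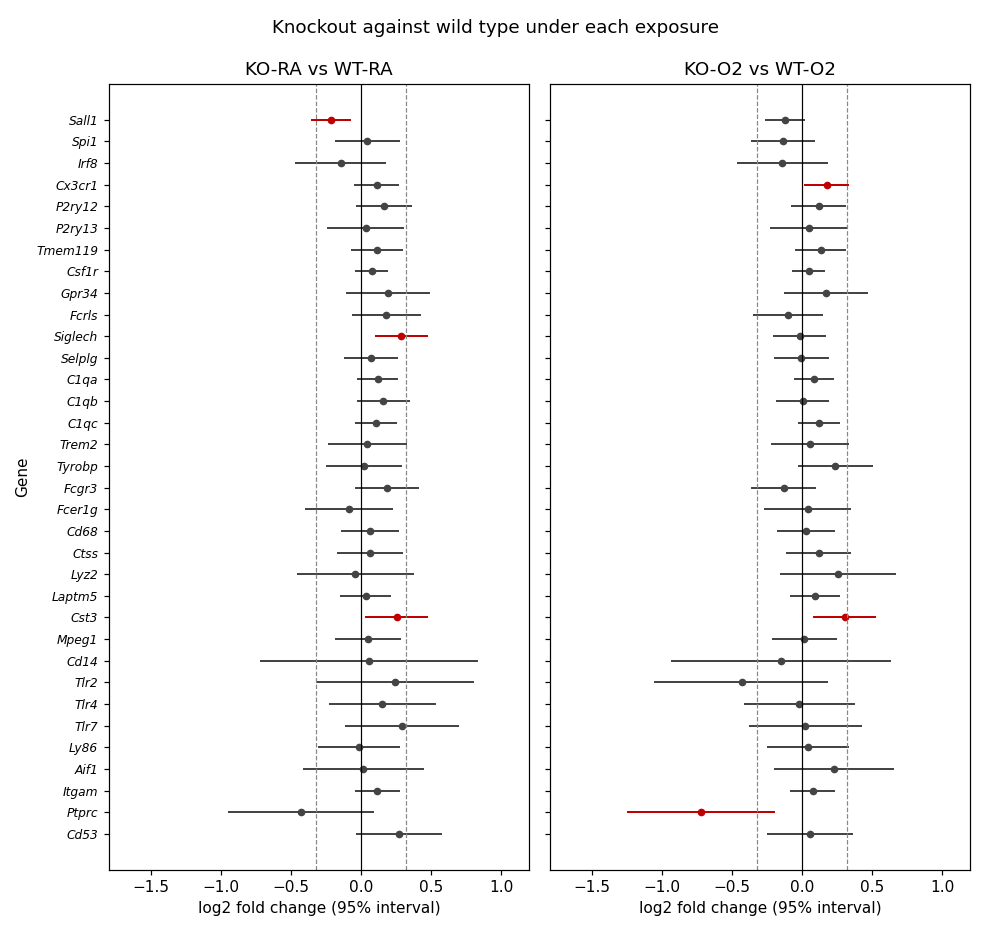
Log2 fold change of each of the 34 genes in KO against WT mice, with its 95% interval, in room air (left) and hyperoxia (right). Genes with an unadjusted p below 0.05 are red, and the dashed lines mark the fold change needed for a call. In room air 28 of the 34 points lie to the right of 0, and Ptprc lies farthest to the left in both panels.

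The 34 genes were also added up for each library, leaving out Cst3, which would otherwise carry close to the same weight as the remaining 33 genes together. The summed level was 682.5 ± 12.9, 695.6 ± 27, 721.9 ± 16.4 and 722.1 ± 49.5 CPM in the 2 WT and then the 2 KO groups, each with room air first (SD, n = 4, 4, 3 and 3). The hyperoxia level was 1.93% above that of room air in WT and 0.0277% above it in KO, and the KO level was 5.79% above WT in room air and 3.81% above it in hyperoxia. The 4 WT-RA libraries ranged from 670.9 to 696.5 CPM and the 3 KO-RA libraries from 703 to 732 CPM, without overlap. WT-O2 (666.3 to 730.7 CPM) and KO-O2 (665.3 to 755.7 CPM) overlapped. With Cst3 included, WT-O2 was 0.984 times WT-RA, which turns the direction in WT, and KO was 1.13 times WT under either exposure.

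The summed markers of some other cells and regions differed more between the genotypes than the microglial sum. That of 10 neuron markers overlapped (6111 to 7392 CPM in WT and 6349 to 7163 CPM in KO libraries). Of these 10, 2 were called lower in KO-RA vs WT-RA, where 10.4% of all genes tested were called. The summed level of 10 oligodendrocyte markers was 5060 to 20400 CPM in WT and 3440 to 6080 CPM in KO libraries, and 10 of the 10 were called lower in KO-RA vs WT-RA. The summed level of 10 striatal markers was 386 to 803 CPM in WT and 164 to 260 CPM in KO libraries, with 9 called lower, and that of 10 hippocampal field markers was 627 to 1030 CPM in WT and 1330 to 1640 CPM in KO libraries, with 10 called higher. These composition markers move with genotype and therefore beside each small genotype difference of the 34 genes, and their part in those differences cannot be told apart from that of the Gsdmd deletion. With striatal and thalamic marker scores as covariates, the median log2 fold change of the 34 genes in KO-RA vs WT-RA was -0.009 in place of 0.072. The striatal sums did not overlap between the genotypes, so a fit with these scores separates genotype from composition only poorly.

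**Figure D4:**
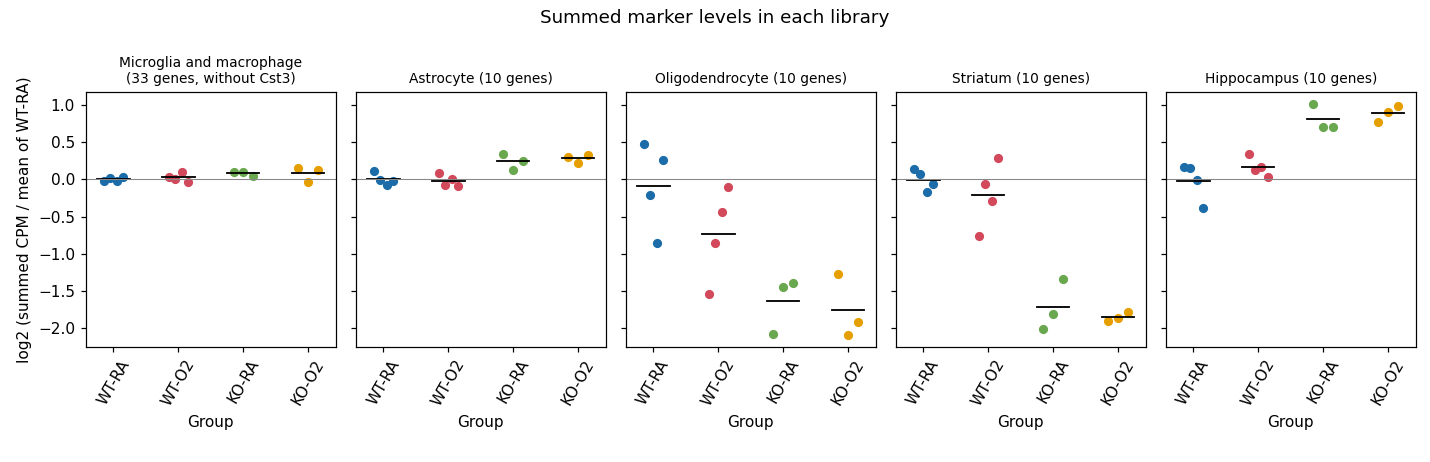
Log2 ratio of the summed CPM of marker genes to the mean of WT-RA in each library, with 1 point per mouse and a black line at the group mean, for the 33 microglial and macrophage genes without Cst3 and for 4 lists of 10 markers of other cells and regions. The microglial points lie close to 0 in all 4 groups, whereas the oligodendrocyte and striatal points of the KO groups lie below most or all WT points and the hippocampal points lie above them.

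Within a group, the 34 genes varied together only in part. As a description over the 14 libraries, each gene's deviation from its group mean on the log2 scale was correlated with the mean deviation of the other members, which all come from the same libraries. The median Pearson correlation was 0.425, against 0.014 for all genes tested. It was highest for C1qc (0.83), Fcer1g (0.82) and Ly86 (0.76), a partner of a Toll-like receptor homologue, and 14 of the 34 genes were above 0.5. The C1q pairs were correlated at 0.78 (C1qa and C1qb), 0.82 (C1qa and C1qc) and 0.69 (C1qb and C1qc). The highest correlation of any pair was 0.84, between P2ry12 and the tetraspanin Cd53, and P2ry12 and its neighbour on chromosome 3, P2ry13, were at 0.82.

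The lowest correlations were those of Itgam (-0.55), Aif1 (-0.27), Ptprc (-0.086) and Spi1 (-0.07), followed by Selplg (0.063), Cd68 (0.13) and Siglech (0.19). KO-O2 replicate 2 had 29 of the 34 genes below its group mean, with a mean deviation of -0.13 on the log2 scale, and WT-O2 replicate 4 had 24 below. KO-O2 replicate 1 and WT-O2 replicate 3 each had 26 of the 34 above their group means. Without KO-O2 replicate 2, the median log2 fold change in KO-O2 vs KO-RA was 0.067 in place of -0.015.

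**Figure D5:**
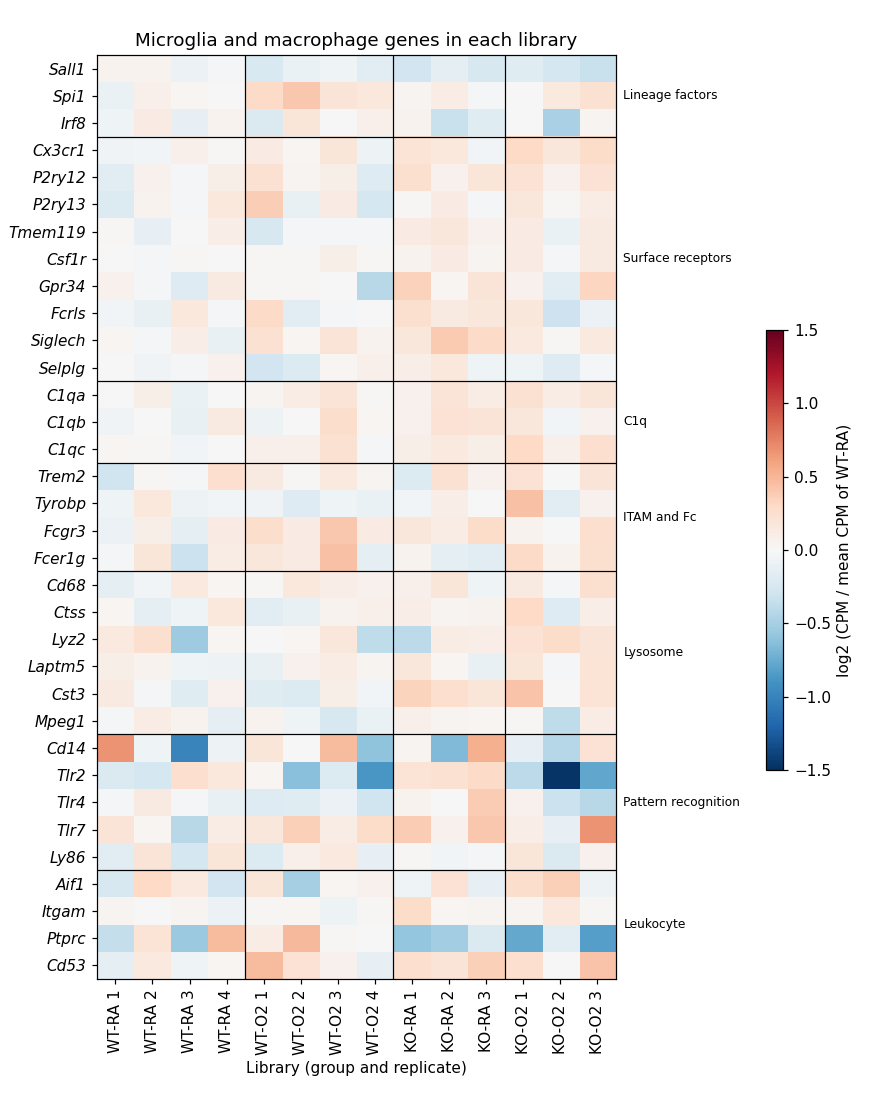
Log2 ratio of each gene's CPM to its mean in WT-RA, for the 34 genes (rows, grouped by role) in the 14 libraries (columns, grouped by genotype and exposure), with red above and blue below the WT-RA mean. Pale rows such as Csf1r hardly varied, Tlr2 is darkest blue in KO-O2, Ptprc is blue in most KO libraries, and KO-O2 replicate 2 is paler or bluer than the replicates beside it.

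Genes that act with the 34 were then examined. Both ligands of CSF1R were well counted, with 469 to 659 counts of Csf1 and 750 to 1153 of Il34 per library, and edgeR called 0 of the 10 genes of the CSF1R signalling list in the 4 comparisons of group pairs (0, 0, 0 and 2 at an unadjusted p below 0.05). Csf1 was at 21.4 ± 2.95 and 20.2 ± 2.22 CPM in room air and hyperoxia in WT mice (SD, n = 4 each), and at 17.7 ± 0.985 and 18.5 ± 0.493 CPM in KO mice (SD, n = 3 each). Il34, made mainly by neurons, was at 34.3 ± 5.6, 32.2 ± 2.13, 33.4 ± 1.82 and 30 ± 2.31 CPM in the same order (SD, same n). Cx3cl1, the neuronal ligand of CX3CR1, was at 876 ± 88.7, 791 ± 35.6, 803 ± 61 and 817 ± 23 CPM in that order (SD, same n), with a log2 fold change in WT-O2 vs WT-RA of -0.147 (edgeR q = 0.433). Cd47, an inhibitory signal to the macrophage receptor SIRPA, was lower in KO-RA than in WT-RA (log2 fold change -0.42, standard error 0.073, edgeR q = 0.00254). It was the 1 called of 9 ligand and receptor genes tested, where 10.4% of all genes tested were called.

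Of 16 transcripts that mark activated microglia, 14 were tested. Cst7 had 0 to 7 counts per library and Itgax had 1 to 15, and neither passed the filter on low counts. Clec7a, a receptor for fungal glucans that rises on activated microglia, had nearly the same mean in WT-RA (0.394 ± 0.209 CPM, SD, n = 4) as in WT-O2 (0.401 ± 0.0864 CPM, SD, n = 4). Spp1, which encodes osteopontin, was at 3.6 ± 2.06 CPM in the room air mice and 3.6 ± 1.91 CPM in the hyperoxia mice (SD, n = 4 each), and Apoe, which astrocytes also make, was at 1180 ± 174 and 1260 ± 125 CPM (SD, n = 4 each). Of the 14 tested genes of this list, edgeR called 0 in either hyperoxia comparison, with 2 in WT and 0 in KO at an unadjusted p below 0.05, and their medians were 0.031 and 0.06 on the log2 scale.

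Between genotypes within an exposure, the 1 gene of this list called was Lpl, which encodes lipoprotein lipase and is also made by hippocampal neurons. It was measured at 71.0, 70.9, 93.5 and 64.5 CPM in WT-RA, at 112, 106, 84.7 and 82.5 CPM in WT-O2, at 164, 118 and 124 CPM in KO-RA and at 131, 148 and 169 CPM in KO-O2. All 6 KO mice were above all 8 WT mice. The log2 fold change of Lpl was 0.85 in KO-RA vs WT-RA (standard error 0.148, edgeR q = 0.00254) and 0.63 in KO-O2 vs WT-O2 (standard error 0.148, edgeR q = 0.0202). Of the 10 hippocampal field markers, 10 and 6 were called higher in the same comparisons, where 10.4% and 6.86% of all genes tested were called. With striatal and thalamic marker scores as covariates, Lpl was at 0.109 in room air (edgeR q = 0.957) and turned to -0.105 in hyperoxia (edgeR q = 0.979), and without KO-O2 replicate 3 its call in hyperoxia was lost. The part of the hippocampal markers in the value of Lpl was not tested.

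Of the inflammatory products, Tnf, Il1b, Il6, Ccl2, Ccl4 and Ccl5 did not pass the filter on low counts and were not tested. Of the 13 that did, 0 were called in either hyperoxia comparison by edgeR (1 and 0 at an unadjusted p below 0.05, with medians of -0.057 in WT and 0.22 in KO on the log2 scale). Ptgs2, which encodes cyclooxygenase 2 and is strongly expressed by hippocampal neurons, rose in KO-RA vs WT-RA (log2 fold change 0.58, edgeR q = 0.0563) and in KO-O2 vs WT-O2 (0.845, edgeR q = 0.0127). Of 23 genes of Toll-like receptor signalling, 0 were called by edgeR in the 4 comparisons of group pairs, with 2 and 1 at an unadjusted p below 0.05 under hyperoxia in WT and in KO, and 3 and 0 between genotypes in room air and in hyperoxia. Of 13 other complement genes, Serping1, the C1 inhibitor, was called higher in KO-RA vs WT-RA (log2 fold change 0.72, standard error 0.182, edgeR q = 0.021) and was the 1 called in the comparisons of group pairs. In KO-RA vs WT-RA, 10.4% of all genes tested were called.

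Macrophages at the brain borders express Mrc1, Pf4 and Ms4a7. Mrc1 was at 7.18 ± 1.54, 9.02 ± 0.827, 8.44 ± 0.823 and 7.98 ± 2.9 CPM in the 2 WT and then the 2 KO groups, each with room air first (SD, n = 4, 4, 3 and 3). Ms4a7 had 9 to 24 counts per library and Pf4 had 10 to 37. Pf4 was called higher in KO-RA vs WT-RA (log2 fold change 1.02, standard error 0.356, edgeR q = 0.0869), and Mrc1 and Ms4a7 were not (edgeR q = 0.581 and 0.238). Pf4 was the 1 called of the 10 border macrophage genes tested, where 10.4% of all genes tested were called. The summed level of 8 choroid plexus markers was 938 to 2460 CPM in WT-RA and 41 to 3320 CPM in KO-RA libraries. The part of these markers in the value of Pf4 was not tested. edgeR called 0 of the 10 tested genes of the border macrophage list under hyperoxia in WT (1 at an unadjusted p below 0.05) and 0 in KO (0 at that p).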

How the data were processed

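Per the submitters' processing notes and the study's methods, the authors made the deposited table of estimated counts per gene with kallisto on GRCm39 and summed transcripts to genes with tximport. Versions, count scaling and trimming are not given in the sources used here. In each library, 41% to 43.2% of values were not whole. The authors tested with DESeq2.

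Counts were rounded and filtered with filterByExpr, and TMM scaling factors were computed (edgeR 4.0.16, R 4.3.3). A single quasi-likelihood fit of all 14 libraries held 1 term for each group and no covariate. Adjusted p (q) followed Benjamini-Hochberg over 16637 genes. The study's thresholds were used for calls: means differing by at least 25%, p below 0.05 and q below 0.1 (two-sided). Nothing in the sources says whether mice of a group shared a litter. The script was tested on simulated data with known changes. Exon lengths were taken from an annotation of GRCm38, and levels per kb are approximate for that reason. Sums over the 34 genes, correlations of deviations from group means (log2 CPM, prior count of 2) and promoter motifs are descriptions without tests.

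The 34 genes and the other lists were chosen with earlier results of these data known. All 34 were named. From other immune lists, genes called in a comparison (up to 6 per list) and a fixed set of activation, border macrophage and ligand genes were named, and marker lists of other cells and regions are given by counts and sums. Alternatives were DESeq2 1.42.0, its size factors, library size alone, other filters and thresholds, the 2 groups compared alone, covariates for sex and for striatal and thalamic markers, mouse GSD408 as room air, and each mouse left out in turn.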

Additional observations from a re-analysis of the deposited data

Results flagged for a closer look

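In groups of 4 mice, 1 mouse stood far from the other 3 (a gap to the nearest mouse that is a large share of the group's range) in 6 of 122 gene and group pairs examined, where chance marks about 1 in 20 groups. The gap was 0.878 of the range for Csf1r in WT-O2 replicate 3 (102 CPM against 97.1 to 97.7), 0.91 for Gpr34 in WT-O2 replicate 4 (7.12 against 9.45 to 9.68), 0.875 for Itgam in WT-O2 replicate 3 (21.7 against 23.1 to 23.3), 0.926 for Tmem119 in WT-O2 replicate 1 (15.7 against 18.2 to 18.4) and 0.859 for Tyrobp in WT-RA replicate 2 (9.58 against 8.16 to 8.36). Outside the 34 genes it was 0.831 for Mpo in WT-O2 replicate 4 (0.666 against 0.394 to 0.44 CPM). Groups of 3 mice were not examined in this way.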

How the results depend on the processing

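In both hyperoxia comparisons and the interaction, 0 of the 34 genes were called under each of the 25 alternatives that could be computed for them. In KO-O2 vs WT-O2, 1 was called by DESeq2 (Ptprc), with the 2 groups alone (Ptprc) and with sex as a covariate (Cst3), and 0 to 2 with 1 mouse left out. In KO-RA vs WT-RA, 0 to 1 were called with 1 mouse left out. By DESeq2, 1 was called for O2 vs RA averaged over genotypes. For KO vs WT averaged over exposures, 0 were called with striatal and thalamic scores as covariates or at a fold change of 1.5, and 1 to 2 with 1 mouse left out. With those scores, the median log2 fold change was -0.009 in KO-RA vs WT-RA and -0.022 in the averaged genotype comparison, and Lpl in KO-O2 vs WT-O2 (-0.105), C3 in the averaged comparison (1.098) and Cd4 (0.85 in hyperoxia, 0.74 in room air and 0.795 on average) took the other sign. The cause was not tested. In KO-O2 vs KO-RA, the median was -0.048 to 0.067 with 1 mouse left out. With all 34 genes in the sum, its log2 ratio was 0.178 in KO-O2 vs WT-O2 and 0.17 in KO-RA vs WT-RA.

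Counts over all genes tested depended on the setting. They were 6 (mouse GSD408 as room air) to 310 (DESeq2) in WT-O2 vs WT-RA, against 107, and 0 to 13 in KO-O2 vs KO-RA, against 2. With striatal and thalamic scores, 1 was called in KO-O2 vs WT-O2, against 1142, and 3 in KO-RA vs WT-RA, against 1738. Of 5372 values of the 34 genes under other fits, 327 had the other sign. No paired analysis was possible because the labels give no replicate numbers shared between groups. Among genes called between genotypes outside the 34, the calls of Cd47, Serping1, Ptgs2 and Pf4 were lost with the striatal and thalamic scores. In KO-RA vs WT-RA with these scores, their log2 fold changes were -0.518, 1.441, 0.404 and 1.174, against -0.419, 0.72, 0.583 and 1.018 without them. These scores move with genotype, and this fit cannot tell their part from that of the deletion. Pf4 was called in 7 of 14 fits that left out 1 mouse. Few mice limit what could be detected, as do low counts, including those of Aif1, Lyz2, Cd14, Tlr2, Tlr4 and Ptprc.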

Other observations

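Of the neutrophil list, 3 of the 4 genes tested were called between genotypes averaged over exposures, at low counts. Of all genes tested, 4.11% were called higher and 7.94% lower in that comparison. Of the monocyte list, edgeR called 0 of 4 in that comparison (0 at an unadjusted p below 0.05). In KO-RA vs WT-RA it also called 0 of the monocyte list. There 2 of the 4 were at that p, against 23.5% of all genes, with a median log2 fold change of -0.344. Averaged over exposures, the neutrophil granule genes S100a9 (log2 fold change 1.98, standard error 0.622, edgeR q = 0.0353), Ngp (1.70, standard error 0.599, edgeR q = 0.0603) and Mpo (0.88, standard error 0.268, edgeR q = 0.0317) rose in KO mice, and the summed level of the neutrophil list was 0.753 to 2.03 CPM in WT and 1.49 to 5.98 CPM in KO libraries. S100a8, Camp, Ltf, Retnlg, Mmp8 and Elane, of the same list, did not pass the filter. Much of this lay in KO-O2 replicate 2. Without that mouse the log2 fold changes of S100a9 and Ngp were 1.39 (edgeR q = 0.125) and 1.29 (edgeR q = 0.178) and neither was called, while Mpo was at 0.729 (edgeR q = 0.0981). Over the 14 fits that left out 1 mouse, S100a9 was called in 12, Ngp in 10 and Mpo in 14. S100a9 had at most 9 counts in WT and 51 in KO libraries. It passed the filter on low counts through KO libraries alone, so its call in KO is not independent of that filter. Mpo had 5 to 19 counts in WT and 11 to 31 in KO libraries. The monocyte receptor Ccr2 had 5 to 13 counts in WT and 5 to 14 in KO libraries. None of these leukocyte lists held a gene called in either hyperoxia comparison.

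Averaged over exposures, Cebpa, a myeloid transcription factor that astrocytes also express, rose by a log2 fold change of 0.37 in KO (edgeR q = 0.0444), and Ticam2, an adaptor of TLR4, rose by 0.47 (edgeR q = 0.0292). Cd52 fell by 0.62 (edgeR q = 0.0898) and C3, the central complement component, fell by 0.98 (edgeR q = 0.0684), with 12 to 36 and 7 to 49 counts per library. Cd52 belongs to the list of activated microglia. Leaving out 1 mouse kept the call of Cd52 in 3 of 14 fits and of C3 in 6 of 14. With striatal and thalamic marker scores as covariates none of the genes named here was called, and the value of C3 turned to 1.098 (edgeR q = 0.865). In that fit Cebpa was at 0.972, Ticam2 at 0.24 and Cd52 at -0.262.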
